A study of Mus musculus with 16 samples.

Results

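Transcripts of the respiratory chain subunits were examined in mouse skeletal muscle and in muscle cell lines. The members were all genes with a single annotated symbol that names a nuclear-encoded subunit of complex I (Ndufa, Ndufb, Ndufc, Ndufs or Ndufv with a number), complex II (Sdha to Sdhd), complex III (Uqcr) or complex IV (Cox4 to Cox8). This name rule found 64 genes, measured by 133 probe sets, among 18194 genes on the arrays. Complex I had 33 of them, complex II 4, complex III 8 and complex IV 17, counting Ndufa4, which carries a complex I name but sits in complex IV. The other 2, Cox7a2l, which joins complexes III and IV into supercomplexes, and Ndufa4l2, an Ndufa4 relative induced by hypoxia, were kept apart. All 64 were accounted for in each comparison. A typical member was very bright: 53 of 64 lay among the brightest 10% of all genes, and 6 (Ndufb1, Ndufb4, Cox4i2, Cox6b2, Cox7b2 and Cox8c) lay below the median gene.

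The respiratory chain passes electrons from NADH, through complex I, and from succinate, through complex II, to ubiquinone, then through complex III and cytochrome c to complex IV, which reduces oxygen. Complexes I, III and IV pump protons across the inner mitochondrial membrane, and ATP synthase uses the resulting gradient. Several complex IV subunits come as isoform pairs, of which mature heart and skeletal muscle prefer Cox6a2, Cox7a1 and Cox8b, while Cox6a1, Cox7a2 and Cox8a are found in most tissues. Oxidative fibres hold more mitochondria than glycolytic fibres, and the gastrocnemius of the mouse is largely a fast muscle.

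The study asked what overexpression of Galgt2 does to muscle that lacks dystrophin. Galgt2 (symbol B4galnt2 on the array) is a glycosyltransferase that adds N-acetylgalactosamine to surface glycoproteins, and the mdx mouse lacks dystrophin through a mutation of Dmd. All mice were males aged 2 months, and all tissue was gastrocnemius. The first array set held wild type (C57BL/6J), mdx (C57BL/10J, deficient in dystrophin), Galgt2 transgenic (C57BL/6J) and Galgt2 transgenic mdx muscle (C57BL/10J x C57BL/6J, deficient in dystrophin), with 2 arrays each. The second set held mdx muscle (C57BL/10J) that had received adeno-associated virus (AAV) carrying Galgt2, and contralateral mdx muscle given phosphate-buffered saline (PBS), with 2 arrays each. The third set held 1 array each of C2C12 myoblasts, C2C12 myotubes and their counterparts stably transfected with Galgt2, called C2CT in the labels. C2C12 is an established mouse myoblast line that fuses into myotubes on differentiation. The labels give neither the promoter that drives the transgene or the vector, nor the number of transfected clones. Strain differed between wild type and mdx and between transgenic mdx and every other group, so strain and genotype cannot be told apart in those comparisons. The labels do not say that the 2 arrays of a group came from separate mice, and p-values therefore measure only the spread between these samples, which may be technical.

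Label checks preceded the results. B4galnt2 was at log2 13.17 to 13.34 in both transgenic groups and 10.54 and 10.56 after AAV-Galgt2, against 3.86 to 5.27 in the other muscle arrays except mdx replicate 2, at 7.78. Dmd was at 11.14 and 11.16 on the wild type arrays and 8.52 and 8.13 on the mdx arrays, with transgenic mdx between them at 9.86 and 9.87. The muscle label fitted the defining marker Ckm, at 11.32 or above on all 12 muscle arrays. Among the cell lines, genes of differentiated muscle ran against the labels in the untransfected pair. Myh8 was at 10.06 in the library labelled myoblast and 5.94 in the library labelled myotube, so results from that pair name the label only. The log2 ratio of 3′ to 5′ Gapdh control probes was 0.18 to 0.48 on the muscle arrays apart from transgenic mdx replicate 2, at 1.23. Because median array intensity was 57.69 to 63.95 in the first set and 25.35 to 25.71 in the second, levels were compared within a set only.

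Promoter sequences are shown for the genes on which the muscle results turned, Cox8a and Ndufa8, and for Cox8b, the muscle partner of Cox8a. The Cox8 pair was set by rule, and Ndufa8 was added after its values were seen. They are from the RefSeq promoter table for build GRCm38.p6 and run 5′ to 3′ on the gene's strand, from 250 bases before the start to 50 bases after it. Capitals mark motif matches on either strand: CAGCTG, an E-box bound by myogenic factors, ACTTCCGG, the reverse of the ETS motif CCGGAAGT, GGGCGG or CCGCCC, bound by SP factors, and the core of the site of nuclear respiratory factor 1 (NRF1). Cox8b lies at chr7:140900397-140900696, Cox8a at chr19:7217567-7217866 and Ndufa8 at chr2:36049289-36049588, all on the minus strand.
Cox8b: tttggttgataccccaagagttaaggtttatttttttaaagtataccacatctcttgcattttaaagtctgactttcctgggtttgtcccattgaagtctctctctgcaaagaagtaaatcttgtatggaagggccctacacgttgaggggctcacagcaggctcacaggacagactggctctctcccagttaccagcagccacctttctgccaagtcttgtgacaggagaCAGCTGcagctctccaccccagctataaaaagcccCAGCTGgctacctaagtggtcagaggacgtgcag
Cox8a: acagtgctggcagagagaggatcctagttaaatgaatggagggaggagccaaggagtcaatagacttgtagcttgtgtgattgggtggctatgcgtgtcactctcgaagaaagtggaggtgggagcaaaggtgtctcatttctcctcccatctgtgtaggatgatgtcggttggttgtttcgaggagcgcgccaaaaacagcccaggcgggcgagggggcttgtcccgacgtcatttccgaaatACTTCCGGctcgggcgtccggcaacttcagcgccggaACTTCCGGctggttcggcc
Ndufa8: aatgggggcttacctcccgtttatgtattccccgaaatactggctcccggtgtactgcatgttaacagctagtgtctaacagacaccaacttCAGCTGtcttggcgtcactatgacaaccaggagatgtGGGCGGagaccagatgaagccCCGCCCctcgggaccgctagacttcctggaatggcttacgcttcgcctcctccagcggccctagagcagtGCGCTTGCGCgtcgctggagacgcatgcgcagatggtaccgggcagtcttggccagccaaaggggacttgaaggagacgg
The window of Cox8b held 2 E-box matches, that of Cox8a held 2 ETS matches and that of Ndufa8 held 1 NRF1 match, 1 E-box match and 2 SP matches. Among windows not shown, that of the muscle isoform Cox7a1 held none of these motifs and that of Cox7a2 held 1 SP match.

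Respiratory chain transcripts of mdx muscle were close to those of wild type, and Cox8a alone was called. In mdx against wild type, 1 of 64 members rose and none fell at an adjusted p of 0.05 (limma, two-sided, Benjamini-Hochberg over 18194 genes), where 5.44% of all genes were called, 3.75% as higher. At an unadjusted p under 0.05 there were 3 members, 4.69% of them against 20.4% of all genes. The median log2 difference of the members was -0.03 and that of all genes 0.01, and the members ranged from -0.68 to 0.74. The members' median was above 0 without wild type replicate 1 (0.0273) or mdx replicate 1 (0.0371). The arrays of mdx and wild type did not overlap for 14 of 64 members, 21.9% of them, against 45.3% of all genes. The 95% confidence interval of the difference lay within 2-fold either way for 55 of 64 members (85.9%), against 58.7% of all genes. In this bulk tissue, fewer cells of a type and less RNA per cell cannot be told apart.

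Cox8a encodes the ubiquitous form of a small complex IV subunit. Its log2 level was 8.98 and 9.03 on the wild type arrays, 9.68 and 9.82 with mdx, 9.31 and 9.36 with the transgene, and 9.12 and 9.19 with both. Both mdx arrays stood above the other 6 arrays of the set, and no group overlapped another. Cox8a rose in mdx by 0.74 on the log2 scale (SE 0.17, 1.68-fold, limma adjusted p = 0.0348). The call was not firm: it was lost without wild type replicate 1 (adjusted p = 0.174), wild type replicate 2 (0.161), mdx replicate 2 (0.126), either transgenic array (0.052 each) or either AAV-Galgt2 array (0.0642 each), and 3 of 9 other settings kept it. The Cox8a probe set used is of a class that can cross-hybridise. Another Cox8a probe set gave 0.73 for the same difference, and a dim one gave 0.09.

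Other ubiquitous isoforms did not pass the test. Cox6a1, a regulatory complex IV subunit, was at 11.81 and 11.48 on the wild type arrays, 12.26 on both mdx arrays, 12.001 and 11.70 with the transgene, and 12.07 and 11.84 with both. The mdx arrays were the highest of the set and stood apart from wild type. The mdx minus wild type difference for Cox6a1 was 0.61 (SE 0.20, limma adjusted p = 0.107), and 0.90 by its other probe set. With the mean of its probe sets in place of the brightest, the adjusted p was 0.0484 (limma), past the threshold. For Cox7a2, the third such isoform, the difference was -0.04 (SE 0.17). Among the muscle isoforms it was -0.08 for Cox6a2 (SE 0.19), -0.20 for Cox7a1 (SE 0.30) and -0.07 for Cox8b (SE 0.28), and mdx and wild type arrays overlapped for each of them.

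Since levels of different probes are not comparable, the muscle minus ubiquitous isoform difference was taken within each array and only its change was read. Cox6a2 minus Cox6a1 was 1.37 and 1.68 on the wild type arrays, 0.70 and 0.96 with mdx, 1.01 and 1.13 with the transgene, and 0.84 and 0.87 with both. Wild type was above the other 3 groups without overlap. Cox8b minus Cox8a was 4.43 and 3.99 on the wild type arrays, 3.16 and 3.62 with mdx, 4.01 and 3.38 with the transgene, and 3.89 and 3.80 with both. Wild type was again above mdx without overlap, but overlapped the transgenic group. Cox7a1 minus Cox7a2 was -1.07 and -1.37 in wild type and -1.59 and -1.16 in mdx, which overlapped. The change from wild type to mdx was -0.70 for the Cox6a pair, -0.82 for the Cox8 pair and -0.16 for the Cox7a pair. With 2 arrays a group, an exact two-sided permutation test cannot go below p = 0.333, the value for the Cox6a and Cox8 pairs.

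**Figure D1:**
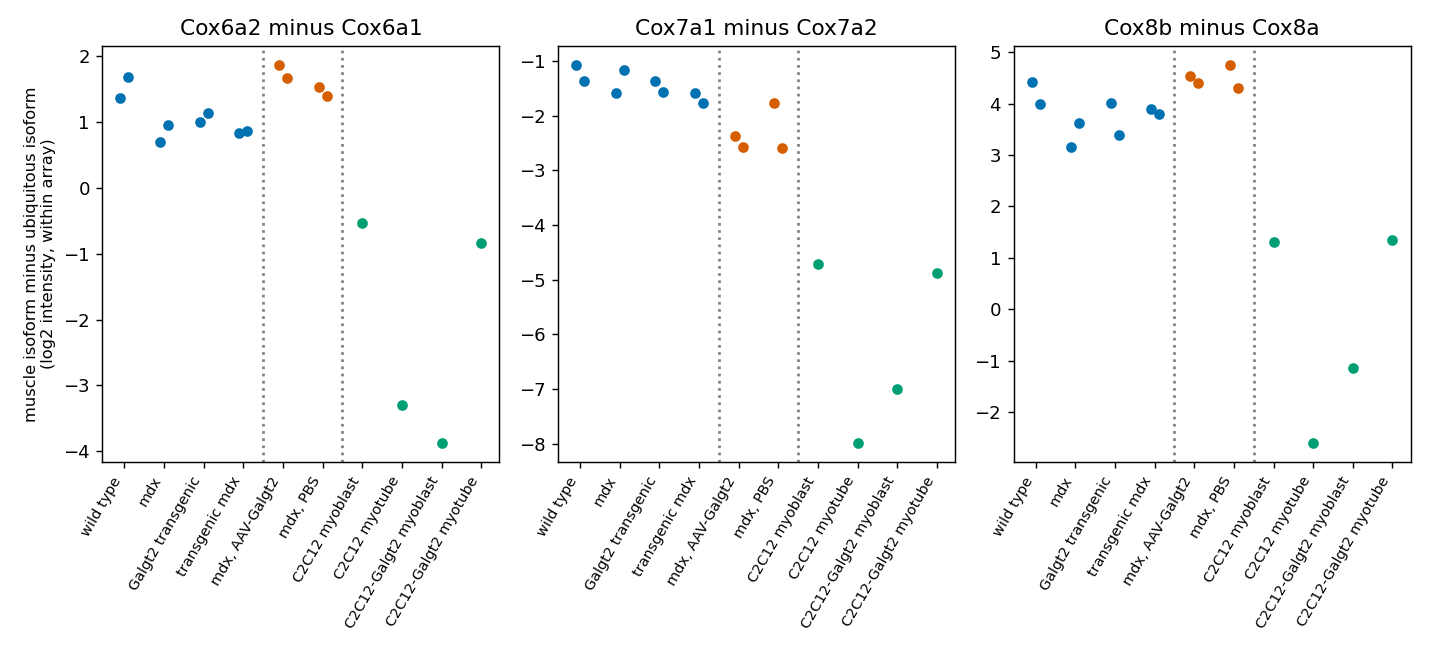
Log2 intensity of the muscle isoform minus that of the ubiquitous isoform within each array (y axis) by group (x axis), 1 point per array, for 3 complex IV pairs. Dotted lines part the array sets (blue first, orange second, green cell lines by their labels). Wild type is highest of the first set for Cox6a2 minus Cox6a1 (1.37 and 1.68), and the cell lines split into a high and a low pair of arrays in every panel.

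The complex I genes were little different in mdx, with a median of -0.02 over 33 genes and no call. Of the 6 core subunits measured, most carry the flavin, iron-sulfur clusters or part of the quinone site. Ndufv1 differed by 0.06 (SE 0.20), Ndufv2 by 0.07 (SE 0.25) and Ndufs3 by -0.02 (SE 0.18). The difference was 0.02 for Ndufs7 (SE 0.31) and 0.16 for Ndufs8 (SE 0.24). Ndufs1, the largest core subunit, was at 11.84 and 12.34 in wild type and at 11.89 and 10.93 in mdx. Mdx replicate 2 was low while replicate 1 lay inside the wild type range. The Ndufs1 difference was -0.68 (SE 0.31, limma adjusted p = 0.258), and without mdx replicate 1 it was -1.16, past the threshold (adjusted p = 0.0426), while without mdx replicate 2 it was -0.20 (adjusted p = 0.790). Ndufs4, an accessory subunit needed for a stable complex, was at 11.92 and 11.88 on the wild type arrays, 11.59 and 11.11 with mdx, 11.94 and 11.87 with the transgene, and 11.89 and 11.96 with both. Both mdx arrays were below the other 6 arrays, by a mean of -0.55 against wild type (SE 0.23, limma adjusted p = 0.219). The other Ndufs4 probe sets gave -1.33, -0.29 and, by a dim one, -0.31 for the same difference.

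In complex II, which is also an enzyme of the citric acid cycle, the mdx minus wild type difference was -0.23 for the flavoprotein Sdha (SE 0.19), 0.11 for the iron-sulfur subunit Sdhb (SE 0.26), and 0.18 and -0.11 for the membrane anchors Sdhc (SE 0.25) and Sdhd (SE 0.33). Complex III had a median of -0.04, with the smallest p in Uqcr10, a small accessory subunit, at -0.20 (SE 0.21, limma adjusted p = 0.687). Other Uqcr10 probe sets, not tested by themselves, gave -0.54 and -0.62, with wild type arrays far apart (9.67 and 5.37 on the first). In transgenic mdx against mdx they gave 2.99 and 2.65, where the one used gave -0.30. In complex IV, Cox4i1, the main form of the subunit 4 gene, differed by 0.08 (SE 0.19), Cox6b1 by 0.02 (SE 0.18) and Ndufa4 by -0.36 (SE 0.31). The dim isoform Cox6b2, known from testis, differed by 0.41 (SE 0.29), and the other dim isoforms by 0.54 for Cox4i2 (SE 0.31), 0.19 for Cox8c (SE 0.23) and -0.10 for Cox7b2 (SE 0.22). The supercomplex factor Cox7a2l differed by 0.07 (SE 0.18). None of these passed the test.

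Markers of other cells moved in the same comparison. Of 14 macrophage genes 11 rose in mdx, with a summed intensity of 35622 to 44757 against 7921 to 8265 in wild type. Of 9 genes of new fibres and myotubes 8 rose, from 15250 to 15458 up to 27652 to 28755. Of 10 mature fibre genes, 0 were called by limma and 0 had an unadjusted p under 0.05, with sums of 118202 to 120824 in mdx and 120077 to 124076 in wild type. The part of these cells in the Cox8a result was not tested.

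**Figure D2:**
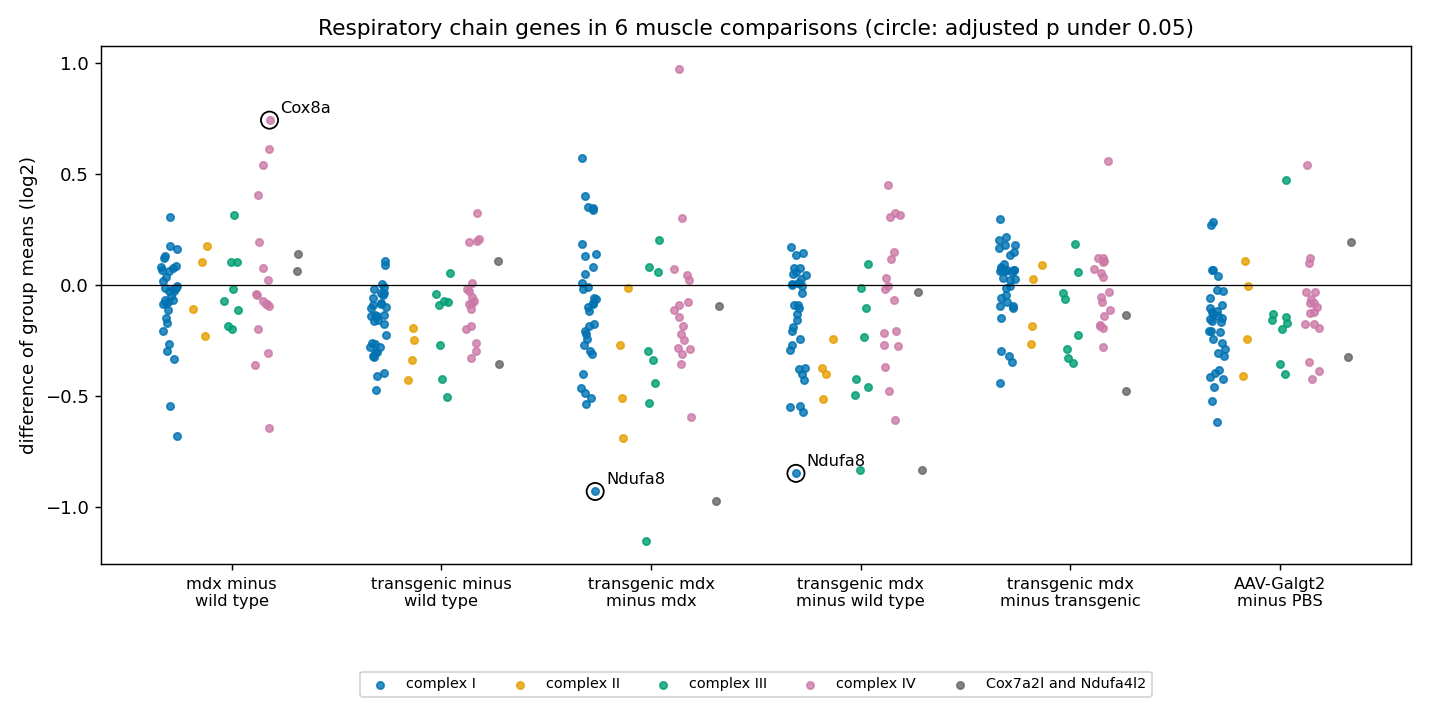
Difference of group means (log2, y axis) for each of the 64 genes in 6 muscle comparisons (x axis), coloured by complex, with black circles around genes with an adjusted p under 0.05. Most points lie within 0.5 of 0, Cox8a is circled in mdx minus wild type at 0.74, and Ndufa8 is circled at -0.93 and -0.85 in the transgenic mdx comparisons.

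In otherwise normal muscle, the Galgt2 transgene went with small negative differences over the chain, none of which passed the test. Transgenic against wild type had 0 of 64 members called (limma), where 3.15% of all genes were called, and 1 member at an unadjusted p under 0.05. The median difference was -0.12 for the members and -0.05 for all genes, and 54 of 64 members were below 0. The members' median rested on single arrays: it was -0.0223 without transgenic replicate 2 and -0.19 without transgenic replicate 1. The arrays of transgenic and wild type did not overlap for 18 members, 28.1% of them, against 47.6% of all genes. All 4 complex II genes and all 6 core complex I genes were below 0, with medians of -0.29 and -0.27. The member with the smallest p was Uqcrfs1, the Rieske iron-sulfur protein of complex III. Its level was 12.74 and 12.66 on the wild type arrays, 12.66 and 12.71 with mdx, 12.38 and 12.18 with the transgene, and 12.21 and 12.27 with both. Both groups with the transgene were below both groups without it, and the transgenic minus wild type difference was -0.42 (SE 0.19, limma adjusted p = 0.332).

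Other named members gave similar sizes. In complex I, Ndufa8 differed by -0.41 (SE 0.22), Ndufv1 by -0.27 (SE 0.20) and Ndufs1 by -0.47 (SE 0.31). In complex II, Sdha differed by -0.34 (SE 0.19) and Sdhb by -0.43 (SE 0.26). Cox8a went the other way, at 0.33 (SE 0.17, limma adjusted p = 0.445), as did Cox6a1, at 0.20 (SE 0.20). Among the muscle isoforms, Cox6a2 differed by -0.26 (SE 0.19), Cox7a1 by -0.30 (SE 0.30) and Cox8b by -0.18 (SE 0.28). For 59 of 64 members the 95% confidence interval lay within 2-fold. Of 7 slow oxidative fibre genes, 2 rose in transgenic muscle, with sums of 40558 to 48612 against 31896 to 32580 in wild type. Of 9 new fibre genes 8 rose, with sums of 26943 to 27804 against 15250 to 15458. Of 10 mature fibre genes 0 were called and 9 were below 0, with sums of 106717 to 114470 against 120077 to 124076. Of 14 macrophage genes 3 rose, with sums of 13431 to 19012 against 7921 to 8265. All 6 endothelial genes were below 0 with none called, and their sums were 2661 to 2683 against 4307 to 4737. The part of these cells in the members' values was not tested.

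In the mdx background the transgene went with lower Ndufa8, an accessory subunit on the intermembrane face of complex I. Transgenic mdx against mdx had 1 of 64 members that fell and none that rose, where 6.08% of all genes were called, 2.11% as lower. At an unadjusted p under 0.05 there were 9 members, 14.1% of them against 21.1% of all genes. The median difference was -0.13 for the members and -0.01 for all genes, and 45 of 64 were below 0. Without mdx replicate 1 the members' median was -0.25. The arrays did not overlap for 31 members, 48.4% of them, against 44.1% of all genes. Lower in transgenic mdx without overlap were 26 members, 40.6% of the 64, against 22.3% of all genes.

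Ndufa8 was at 11.98 and 11.89 on the wild type arrays, 12.04 and 11.99 with mdx, 11.43 and 11.62 with the transgene, and 11.34 and 10.84 with both. Both transgene groups lay below both groups without it, and transgenic mdx replicate 2 was the lowest array. Ndufa8 fell by 0.93 on the log2 scale from mdx to transgenic mdx (SE 0.22, 1.91-fold, limma adjusted p = 0.0359). Without transgenic mdx replicate 2, the array with the high Gapdh 3′ to 5′ ratio, the difference was -0.68 and the adjusted p 0.206 (limma). Of the 12 fits that left out 1 array, 5 kept the call. Against wild type, transgenic mdx Ndufa8 fell by 0.85 (SE 0.22, limma adjusted p = 0.0441), the only member called there, where 7.28% of all genes were called, 2.36% as lower. That call was kept in 5 of the 12 fits that left out 1 array, and without transgenic mdx replicate 2 the difference was -0.60 (adjusted p = 0.283).

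Ndufa4l2, the hypoxia-induced relative of Ndufa4, was at 7.46 and 7.84 on the wild type arrays, 7.57 and 8.01 with mdx, 6.998 and 7.60 with the transgene, and 6.83 and 6.80 with both. The transgenic mdx arrays were the lowest of the set, and transgenic overlapped wild type. The transgenic mdx minus mdx difference was -0.97 (SE 0.26), just short of the threshold (limma adjusted p = 0.0517), and the difference from wild type was -0.83 (SE 0.26, adjusted p = 0.0803). Ndufa4 itself, with -0.25 against mdx (SE 0.31), overlapped mdx.

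Complex II had a median of -0.39 in transgenic mdx against mdx, the most negative of the 4 complexes, with no call. Sdhc was at 11.72 and 12.01 on the wild type arrays, 12.19 and 11.89 with mdx, 11.35 and 11.88 with the transgene, and 11.14 and 11.56 with both. The transgenic mdx arrays were below mdx and wild type but overlapped transgenic, and the Sdhc difference from mdx was -0.69 (SE 0.25, limma adjusted p = 0.132). Sdhb differed by -0.51 (SE 0.26), Sdhd by -0.27 (SE 0.33) and Sdha by -0.01 (SE 0.19). In complex III the smallest p was that of Uqcrfs1, at -0.44 (SE 0.19, limma adjusted p = 0.202). Of the complex I core, 5 of 6 were below 0, from -0.54 for Ndufs8 (SE 0.24) to 0.13 for Ndufs1 (SE 0.31). Ndufs4 was 0.57 higher in transgenic mdx than in mdx (SE 0.23, limma adjusted p = 0.189), and its difference from wild type was 0.03 (SE 0.23). With the mean of its probe sets in place of the brightest, the Ndufs4 difference from mdx was 1.13, past the threshold (limma adjusted p = 0.0173). Its other probe sets gave 0.94, 0.59 and, by a dim one, 2.40 against mdx. In that order they gave -0.39, 0.30 and 2.09 against wild type. Muscle isoforms of complex IV differed from mdx by -0.29 for Cox6a2 (SE 0.19), -0.28 for Cox7a1 (SE 0.30) and -0.14 for Cox8b (SE 0.28), none past the threshold.

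Cox8a in transgenic mdx was 0.59 below mdx, a difference of -0.59 (SE 0.17), but did not pass the test (limma adjusted p = 0.0713). Its difference from wild type was 0.15 (SE 0.17). An interaction compared the transgene difference in mdx with that in normal muscle, with 0 of 64 members called (limma), where 0.044% of all genes were. Strain differed between transgenic mdx and mdx but not between transgenic and wild type. The interaction therefore cannot tell strain from genotype. At an unadjusted p under 0.05 there was 1 member. That member was Cox8a, with an interaction of -0.92 (SE 0.25, limma adjusted p = 0.181). For Ndufa8 the interaction was -0.52 (SE 0.31, adjusted p = 0.565), so its fall was not shown to differ between the backgrounds. Transgenic mdx against transgenic muscle had 0 members called and 0 at an unadjusted p under 0.05 (limma), where 0.055% of all genes were called, and a median of 0.01. The mdx group enters both the mdx minus wild type and the transgenic mdx minus mdx differences, so opposite signs in them are not independent.

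Cell markers moved here as well. Of 14 macrophage genes 6 fell in transgenic mdx against mdx, to sums of 18993 to 19470. Of 7 slow oxidative fibre genes 1 rose and 6 were above 0, with sums of 39780 to 50343 against 27147 to 38689 in mdx. Of 10 mature fibre genes 1 fell, with sums of 103866 to 107340, and 1 of 6 endothelial genes fell, with sums of 2136 to 2232 against 3786 to 4033 in mdx. The part of these cells in the Ndufa8 result was not tested.

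**Figure D3:**
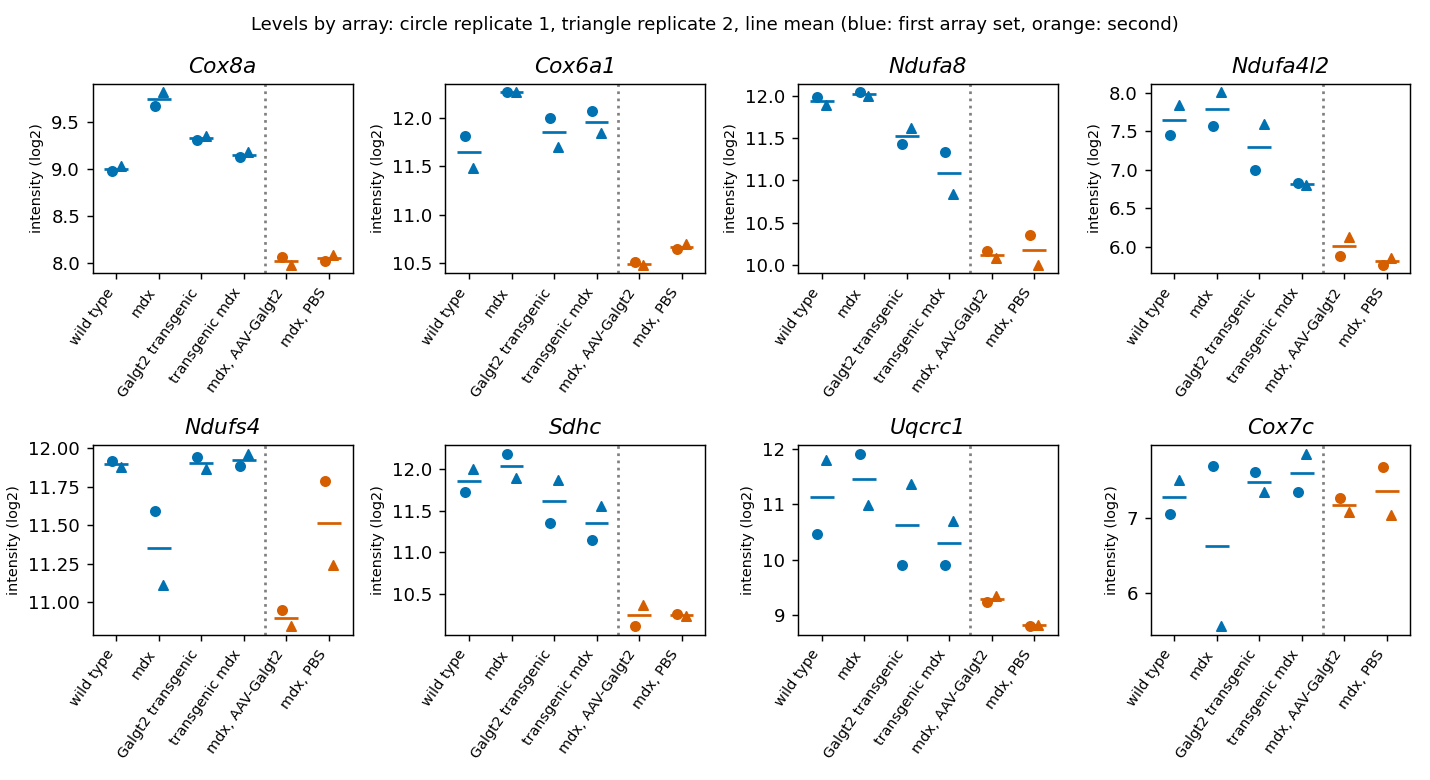
Log2 intensity (y axes, each with its own range) of 8 respiratory chain genes by muscle group (x axes), with a circle for replicate 1, a triangle for replicate 2 and a line at the mean. The dotted line parts the first array set (blue) from the second (orange), whose levels are not comparable. Both mdx arrays are the highest for Cox8a (9.68 and 9.82), both transgenic mdx arrays are the lowest of the set for Ndufa8 (11.34 and 10.84), and replicates of Uqcrc1 and Cox7c are far apart.

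Delivery of Galgt2 by AAV to mdx muscle gave no call among the members. In AAV-Galgt2 against PBS muscle, 0 of 64 members passed the test (limma), where 0% of all genes were called, and 1 member and 1506 of all genes had an unadjusted p under 0.05. The median difference was -0.15 for the members and 0.03 for all genes, and 53 of 64 members were below 0. The arrays did not overlap for 24 members, 37.5% of them, against 43.8% of all genes. One array stood apart: PBS replicate 1 was the highest of the 4 arrays for 47 of 64 members, and PBS replicate 2 for 5. The median of the members was -0.0069 without PBS replicate 1 and -0.29 without PBS replicate 2. The labels do not say which of these arrays share a mouse, so the SEs and intervals treat them as unpaired.

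Ndufs4 was the member with the smallest p, at 10.95 and 10.84 after AAV-Galgt2 and 11.79 and 11.24 after PBS. The groups did not overlap, PBS replicate 1 was well above the rest, and the difference was -0.62 (SE 0.23, limma adjusted p = 0.524). Cox7a1 showed the same array even more clearly, at 10.49 and 10.31 after AAV-Galgt2 and 11.30 and 10.35 after PBS. These overlapped, with a difference of -0.42 (SE 0.30). Uqcrc1, a core protein of complex III, went the other way, at 9.24 and 9.33 against 8.80 and 8.82, a difference of 0.47 (SE 0.54) without overlap. The genes called in the first set gave differences near 0. Cox8a was at 8.07 and 7.98 against 8.02 and 8.09 (difference -0.03, SE 0.17), and Ndufa8 at 10.16 and 10.09 against 10.36 and 10.01 (difference -0.06, SE 0.22). In both cases the groups overlapped, with 95% confidence intervals of -0.42 to 0.35 and -0.55 to 0.43. All 5 adipocyte markers were below 0, with sums of 5349 to 5819 after AAV-Galgt2 and 6947 to 8751 after PBS. Above 0 were 8 of 9 new fibre genes, 7 of 8 pericyte and smooth muscle genes and 5 of 6 endothelial genes. Macrophage genes split, with 7 above 0 and 7 below. None of these markers was called, and the part of these cells in the members' values was not tested.

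Spread between replicates set what could be seen. The median gap between the 2 arrays of a group was 0.25 in wild type and mdx, 0.26 in transgenic, 0.15 in transgenic mdx, 0.14 after AAV-Galgt2 and 0.28 after PBS on the log2 scale. Over all genes it was 0.35 in mdx and 0.26 in PBS. Uqcrc1 had a wide gap in every group of the first set, at 10.47 and 11.80 on the wild type arrays, 11.92 and 10.99 with mdx, 9.90 and 11.36 with the transgene, and 9.90 and 10.70 with both. Its transgenic mdx minus mdx difference of -1.15 was the largest of any member there, and with an SE of 0.54 did not pass the test (limma adjusted p = 0.254). Cox7c, a small complex IV subunit, was at 7.69 and 5.56 in mdx, a gap of 2.13, against 7.05 and 7.50 in wild type. Mdx replicate 2 was alone at that low level, and the mdx minus wild type difference for Cox7c was -0.65 (SE 0.54).

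**Figure D4:**
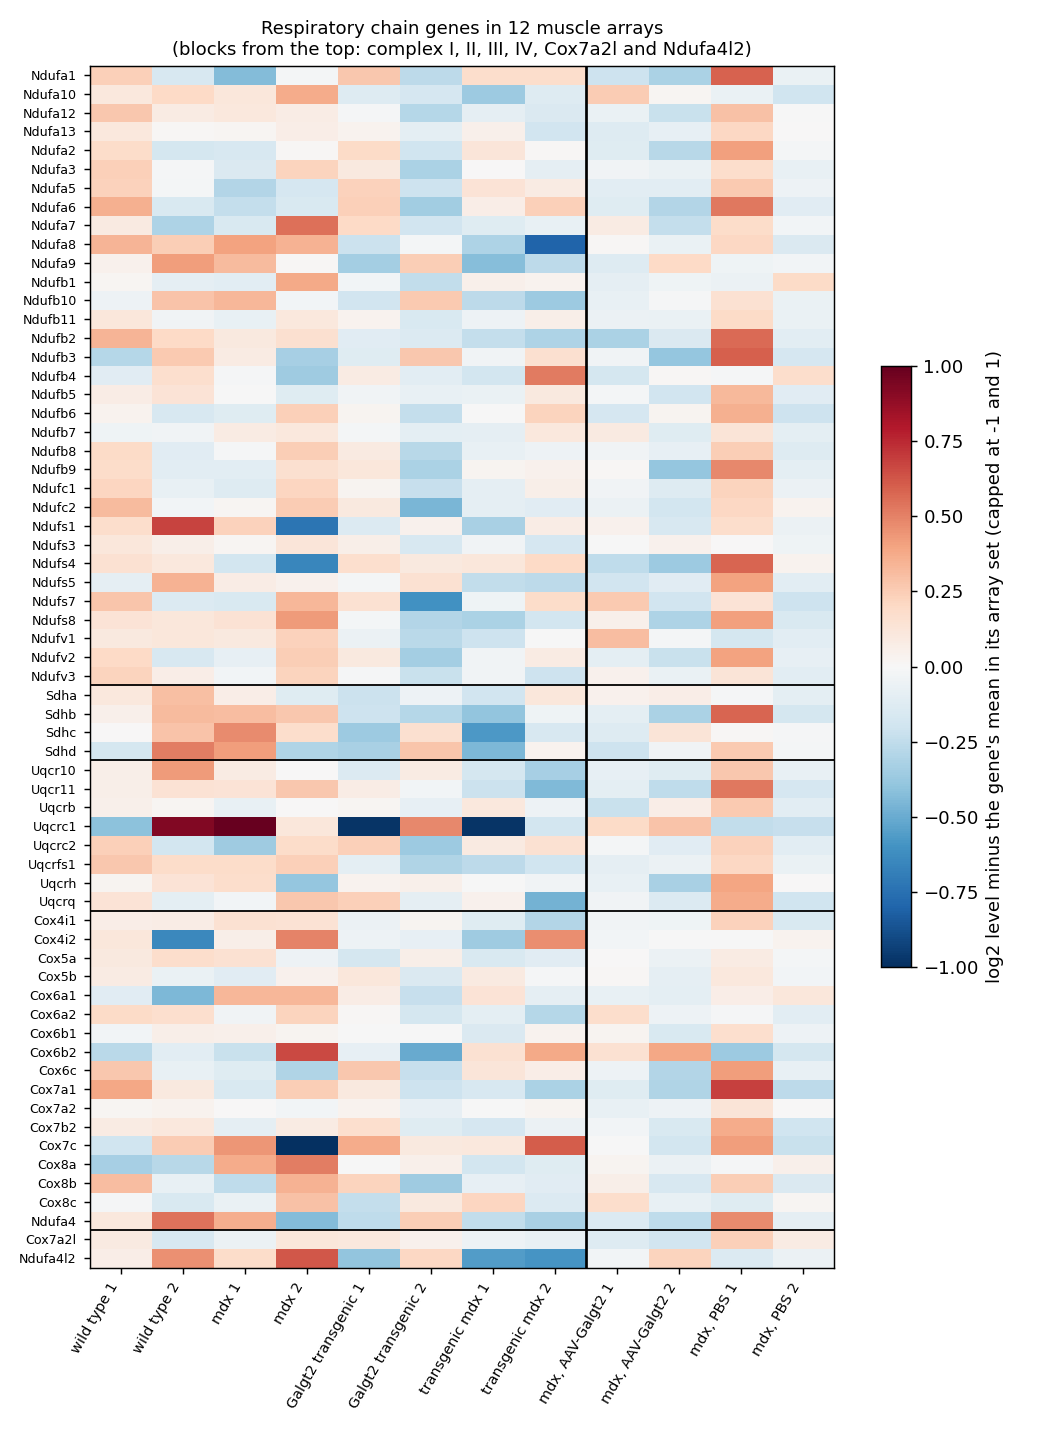
Log2 level of each of the 64 genes (rows, by complex) on the 12 muscle arrays (columns), minus the gene's mean in its array set. The colour scale stops at -1 and 1, red is above and blue below the mean, and the thick line parts the array sets. PBS replicate 1 is red over most rows, Uqcrc1 and Cox7c differ between replicates, and Ndufa8 is bluest in transgenic mdx replicate 2.

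The rest of the oxidative machinery was read from lists chosen with earlier results known. Among 20 regulators of mitochondrial biogenesis, 2 (10.0%) fell in mdx against wild type, where 5.44% of all genes were called, 308 of 18194 as lower. They were Esrrg, a nuclear receptor that activates oxidative genes, at -1.27 (SE 0.24, limma adjusted p = 0.0148), and Tfb2m, a mitochondrial transcription factor, at -1.08 (SE 0.23, adjusted p = 0.0263). In transgenic mdx against mdx 2 of the 20 (10.0%) were called, where 6.08% of all genes were. Esrrg rose by 1.58 (SE 0.24, limma adjusted p = 0.00575), while Perm1, a muscle regulator of oxidative genes, fell by 1.56 (SE 0.30, adjusted p = 0.0167). The mdx arrays enter both Esrrg differences, so their opposite signs are not independent. Of 13 citric acid cycle genes 0 were called by limma in mdx and 0 had an unadjusted p under 0.05, and 2 (15.4%) fell in transgenic mdx against mdx, where 6.08% of all genes were called, 2.11% as lower. These were Idh3a, a subunit of isocitrate dehydrogenase, at -1.18 (SE 0.21, adjusted p = 0.0121), and Ogdh, of the oxoglutarate dehydrogenase complex, at -0.82 (SE 0.21, adjusted p = 0.0464).

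Of 76 mitochondrial ribosome genes, 3 (3.95%) fell in transgenic mdx against mdx, where 6.08% of all genes were called, 2.11% as lower. Mrpl14 fell by 1.25 (SE 0.29, limma adjusted p = 0.032), Mrpl28 by 0.85 (SE 0.22, adjusted p = 0.0467) and Mrpl45 by 0.80 (SE 0.19, adjusted p = 0.0359). Of 41 assembly factors of the complexes, 1 (2.44%) was called in transgenic against wild type, where 3.15% of all genes were, and 1 in transgenic mdx against mdx, shares near or below those of all genes. It was Ndufaf6, a complex I assembly factor, in both. Its difference was -1.20 without the mdx mutation (SE 0.23, adjusted p = 0.0186) and -0.93 with it (SE 0.23, adjusted p = 0.042). In transgenic mdx against wild type, 4 assembly factors (9.76%) were called, 3 lower and 1 higher, where 7.28% of all genes were called. Among them were Tmem126b at -1.60 (SE 0.36), Ndufaf6 at -1.31 (SE 0.23) and Cox19 at 1.14 (SE 0.26). ATP synthase had 0 of 16 genes called when mdx or transgenic muscle was set against wild type (limma), with 1 at an unadjusted p under 0.05 in each. That gene was the inhibitor Atpif1 in both, at 0.85 in mdx (SE 0.25, limma adjusted p = 0.0783) and 0.98 in transgenic muscle (SE 0.25, adjusted p = 0.0744). In transgenic mdx against wild type 1 of 16 genes (6.25%) was called, where 7.28% of all genes were. It was again Atpif1, higher by 1.44 (SE 0.25, adjusted p = 0.00748). The 6 electron carriers and unmatched subunits and the 11 coenzyme Q genes had 0 calls when mdx or transgenic muscle was set against wild type or transgenic mdx against mdx (limma). At an unadjusted p under 0.05 there were 0 carriers in each, and 2 coenzyme Q genes in the last comparison. The most negative value among them in transgenic mdx against mdx was that of Etfb, an electron transfer flavoprotein subunit, at -1.10 (SE 0.51, adjusted p = 0.250).

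In the cell lines, 3 muscle isoforms of complex IV differed by more than 2-fold, and the other members above the median gene by less, but mostly in one direction within a comparison. There was 1 array per condition, so no difference has a replicate check or a test. Of 64 members, 57 were above the median gene in each comparison, and 3 of these, Cox6a2, Cox7a1 and Cox8b, were past 2-fold in every one. From C2C12-Galgt2 myoblasts to myotubes, 7.15% of genes above the median were past 2-fold either way. There Cox6a2 went from 8.80 to 11.60, a difference of 2.80, Cox7a1 from 6.53 to 8.73, a difference of 2.20, and Cox8b from 9.38 to 11.58, a difference of 2.21. All 3 were higher in the myotubes. The other 61 members ranged from -0.76 to 1.18, with the top value that of the dim gene Cox7b2, at 3.92 and 5.10.

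The untransfected pair ran the other way by its labels. From the library labelled C2C12 myoblast to the library labelled myotube, Cox6a2 went from 11.86 to 9.17, a difference of -2.68, Cox7a1 from 8.86 to 5.52, a difference of -3.34, and Cox8b from 11.34 to 7.85, a difference of -3.49, where 11.9% of genes were past 2-fold. The library labelled myoblast thus held levels near those of the C2C12-Galgt2 myotubes. Markers of differentiation moved alongside: all 10 mature fibre genes and all 9 new fibre genes were lower in the library labelled myotube, with sums of 13534 against 40219 and of 38059 against 63028. In C2C12-Galgt2 cells both lists were higher in myotubes, at 45998 against 20541 and 59122 against 39986.

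Ubiquitous partners of these isoforms differed by less than 2-fold across the 4 arrays. In the order C2C12 labelled myoblast and myotube, then C2C12-Galgt2 myoblast and myotube, Cox8a was at 10.04, 10.46, 10.52 and 10.25, Cox6a1 at 12.40, 12.47, 12.68 and 12.44, and Cox7a2 at 13.58, 13.51, 13.54 and 13.61. Cox8b minus Cox8a within an array was 1.30, -2.60, -1.14 and 1.34 in that order. From the myoblast to the myotube label, Cox8a differed by 0.41 in the untransfected pair and -0.27 in C2C12-Galgt2 cells, opposite in sign to Cox8b. Cox6a1 differed by 0.08 and -0.24, also opposite to its partner, and Cox7a2 by -0.07 and 0.07, with the signs of its partner. Comparisons between the lines rest on the untransfected pair. Galgt2 myoblasts against the library labelled myoblast gave -3.05 for Cox6a2, -2.33 for Cox7a1 and -1.96 for Cox8b (background 8.59%), and Galgt2 myotubes against the library labelled myotube gave 2.43, 3.20 and 3.73 (background 14.1%).

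Smaller differences ran through most of the chain. From C2C12-Galgt2 myoblast to myotube the median of all 64 members was 0.11, with 46 above 0, against -0.09 for all genes. In the untransfected pair by its labels it was -0.28, with 57 of 64 below 0, against 0.02 for all genes. Complex I had 32 of 33 genes below 0 there, with a median of -0.32. Between Galgt2 myotubes and the library labelled myotube the members' median was 0.28, with 56 of 64 above 0, against -0.0048 for all genes. Complex I had 32 of 33 genes above 0 there, with a median of 0.37. These last comparisons share the library labelled myotube and are not independent. Outside the muscle isoforms, the members with the greatest fold in these last comparisons were Ndufs4, Uqcrc1 and Ndufb7, named after their values were seen. In the untransfected pair by its labels, Ndufs4 was 1.93-fold lower and Uqcrc1 1.88-fold lower. Ndufb7 was 1.79-fold higher in Galgt2 myotubes than in the library labelled myotube.

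**Figure D5:**
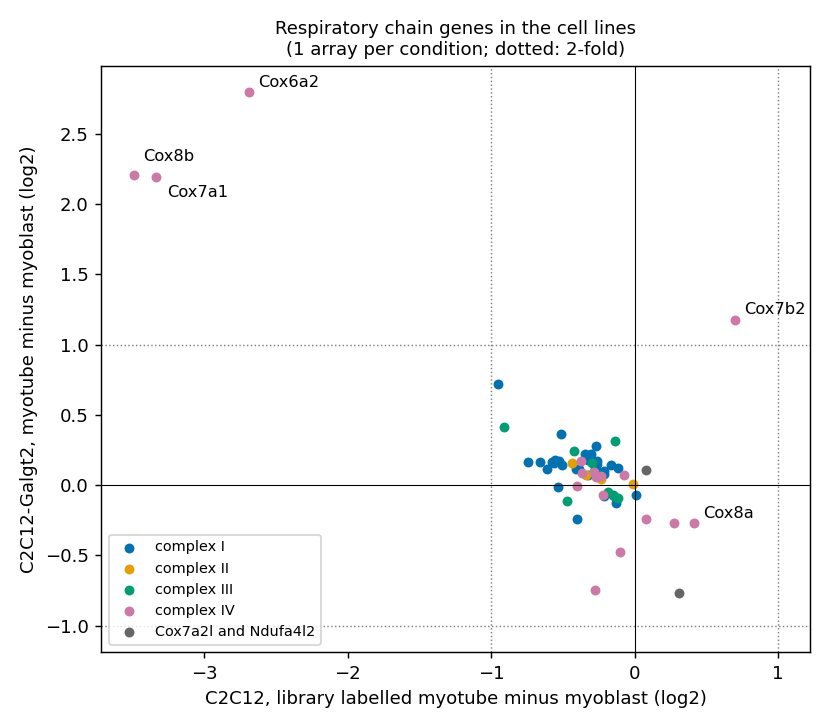
Log2 difference between the myotube and myoblast libraries of C2C12-Galgt2 cells (y axis) against that of the untransfected C2C12 pair by its labels (x axis), 1 point per gene, coloured by complex, with dotted lines at 2-fold. Cox6a2, Cox7a1 and Cox8b are alone at the upper left (2.80, 2.20 and 2.21 against -2.68, -3.34 and -3.49).

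Promoter motifs were counted for the members with a RefSeq entry, 51 of 64 genes with 53 promoters of 300 bases, beside all 32851 promoters of that length, on both strands. Of the 53 member promoters, 32 were of complex I genes and 12 of complex IV genes. The NRF1 motif was in 18.9% of member promoters and 4.60% of all. YY1, as AAGATGGC, was in 11.3% against 2.75%, and all 6 matches were in complex I genes, among them Ndufs4 and Ndufs7. ETS, as CCGGAAGT, was in 7.55% against 3.89%, and the estrogen-related receptor motif TNAAGGTCA in 3.77% against 1.28%. The SP motif GGGCGG was in 43.4% against 35.7%. The E-box CAGCTG was in 9.43% against 16.3%, with Cox8b the only complex IV gene, and MEF2, as TATTTNTA, was in 0% against 5.99%. A match is a description of these letters and not a bound site. Of the genes called, Cox8a held ETS and Ndufa8 held NRF1 matches.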

How the data were processed

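Expression was measured on 16 Affymetrix mouse arrays. The deposited values are one intensity per probe set and array on a linear scale, from 3.9 to 24269, made by the authors with GCOS and RMA per the submitters' processing notes, which give no versions. Whether the array sets were normalized together is not given in the sources used here. Here log2 of the intensity was taken with no offset. Of 45101 probe sets, 34958 carried a single symbol, 932 several and 9211 none listed, and the last 2 kinds were left out. The brightest probe set over the muscle arrays stood for each of 18194 genes, and 2 members used another probe set in the cells. A linear model with a mean for each of the 6 muscle groups and no covariate was fitted to the 12 muscle arrays (limma 3.58.1 under R 4.3.3), and p-values were adjusted by Benjamini-Hochberg over all genes with a threshold of 0.05. The script was tested on simulated data. Arrays have no read depth, and their number limits the precision. Median differences and overlaps of arrays describe lists and carry no test. Members and lists were chosen with earlier results of these data known. Named genes were the complex IV isoforms, complex II, the complex I core, every called member, the smallest p of each complex and the top genes of each list; Cox7c, Uqcrc1 and other genes with wide replicate gaps were named after their values were seen. Alternatives were a fit within the array set, a replicate block, centring, quantile normalization, the mean of probe sets, dim genes left out, an offset of 16, a trended prior, array weights and leaving out each array. In the cells, 2-fold was read among genes whose higher level was above the median gene.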

Additional observations from a re-analysis of the deposited data

Results flagged for a closer look

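The muscle isoforms of complex IV moved in opposite directions from myoblast to myotube in the 2 cell line pairs by their labels, with 1 array per condition. The log2 difference was 2.80 for Cox6a2 in C2C12-Galgt2 cells and -2.68 in untransfected cells. It was 2.20 and -3.34 for Cox7a1, and 2.21 and -3.49 for Cox8b. The difference between the pairs was not tested. Fibre and myotube markers also ran opposite ways in the pairs, as given above.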

How the results depend on the processing

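Few calls were made, and those few depended on the setting. In mdx against wild type the count of called members was 0 with the fit within the array set, the replicate block, centring on array medians, a trended prior and array weights. In transgenic mdx against mdx it was 0 with the fit within the set, the block, centring and array weights, 2 with quantile normalization or dim genes left out, and 3 with the mean of probe sets or an offset of 16. In transgenic mdx against wild type it was 0 with the fit within the set and the block, and 2 with centring or quantile normalization. Replicate numbers gave no consistent pairing. Deviations of same-numbered arrays correlated from -0.439 (wild type and mdx) to 0.542 (wild type and transgenic) in the first set. Some deviations were thus shared between groups, in opposite directions, and their source was not tested. Between AAV-Galgt2 and PBS the correlation was -0.047, where muscles were contralateral but the labels do not tie arrays to mice. Centring moved the median over all genes, to -0.28 in mdx against wild type, and the members' medians with it, to -0.31 there, -0.29 in transgenic against wild type, -0.41 in transgenic mdx against wild type, -0.11 in transgenic mdx against transgenic, 0.17 in the interaction and -0.33 in AAV-Galgt2 against PBS. Centring moves every gene alike, so the gap between members and all genes cannot change under it. Quantile normalization narrowed that gap from -0.03 to -0.0054 in mdx against wild type, from -0.13 to -0.0579 in transgenic mdx against wild type and from -0.06 to -0.0179 in transgenic mdx against transgenic. With dim genes left out the median was -0.18 for transgenic mdx minus mdx and -0.17 when wild type was the control. Leaving out 1 array gave counts of 0 to 3 in mdx against wild type, 0 to 2 in transgenic mdx against mdx and 0 to 1 against wild type. The medians then ran from -0.059 to 0.0371, -0.246 to -0.0914 and -0.18 to -0.10 in that order, from -0.19 to -0.0223 in transgenic against wild type, -0.0832 to 0.0667 in transgenic mdx against transgenic, and -0.0671 to 0.10 in the interaction. In the cells, 6 members were past 2-fold in the untransfected pair and 5 between the libraries labelled myotube with the mean of probe sets. At 1.5-fold these were 8 and 12, with 5 between the myoblast libraries. No share of all genes is given beside these cell counts, so they are no result about the members. No called value changed its sign under these settings. The cause of these shifts was not tested. Signal limits the 6 members below the median gene.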
